A study of Drosophila melanogaster with 14 samples.

Results

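RNA of late cytoplasmic extracts was compared with RNA of early whole embryos of Drosophila melanogaster. The comparison rests on 4 of the 14 libraries of the series, chosen by their labels. Both early libraries hold total RNA of whole wt Oregon R embryos, 0 to 45 min after egg laying (AEL) and labelled as stages 1 to 5. Both cytoplasmic libraries hold RNA of the cytoplasmic extract of wt Oregon R embryos, 90 to 180 min AEL and labelled as stages 5 to 14. The study's methods give both ages as mitotic cycles instead, and describe the late embryos as cellularized blastoderm throughout. The labelled stages were not checked here. These late embryos were aged for 90 min after a collection of 90 min. Neither group carried a mutation, a transgene or a treatment. Only the late embryos were fractionated, so that stage and fractionation cannot be told apart in any value given here. Of 15682 genes listed, the 9997 with a mean of at least 5 normalized read counts in either group were tested.

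The fly egg is loaded with maternal RNAs, which run the first, very fast nuclear divisions in a shared cytoplasm with almost no transcription. The embryo then switches on its own genes under the pioneer factor Zelda, which binds the heptamer CAGGTAG and its variants. Membranes grow down between the nuclei (cellularization), many maternal RNAs are degraded, and the gap, pair-rule and dorsoventral genes divide the blastoderm into domains. RNA made after the switch is called zygotic.

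The libraries held 26817392 and 28105432 reads in early embryos and 32315781 and 28654870 in cytoplasmic extracts, with 10866 to 11285 genes above 0. Early replicates lay close together, with a median absolute difference of 0.10 on the log2 scale. The cytoplasmic replicates differed by a median of 0.65. Whether the replicates are separate embryo collections is not given in the sources used here, and the p-values therefore cover the spread of these libraries alone. In bulk RNA, fewer cells of a type and less RNA per cell cannot be told apart. The extracts labelled cytoplasmic were rich in some RNAs that act in the nucleus. The small nuclear RNAs, 7SK included, summed to 714919 and 1151179 normalized read counts there, against 96524 and 99217 in early embryos. Most of each sum was 7SK alone, though 15 of 21 tested snRNAs were higher by limma. Of the long RNAs given below, roX1 was higher, roX2 did not pass the test and Hsromega overlapped between groups. Nuclear extracts were not used here, so that the names of the extracts are taken as labelled. Early libraries also carried RNAs of differentiated tissue. The 16 sarcomere genes summed to 48897 and 43615 in early embryos and to 9969 and 38707 in cytoplasmic replicates 1 and 2. The 12 neuron genes summed to 1781 and 1695, and to 583 and 1987. Both marker sums were over 3 times as high in cytoplasmic replicate 2 as in replicate 1.

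**Figure D1:**
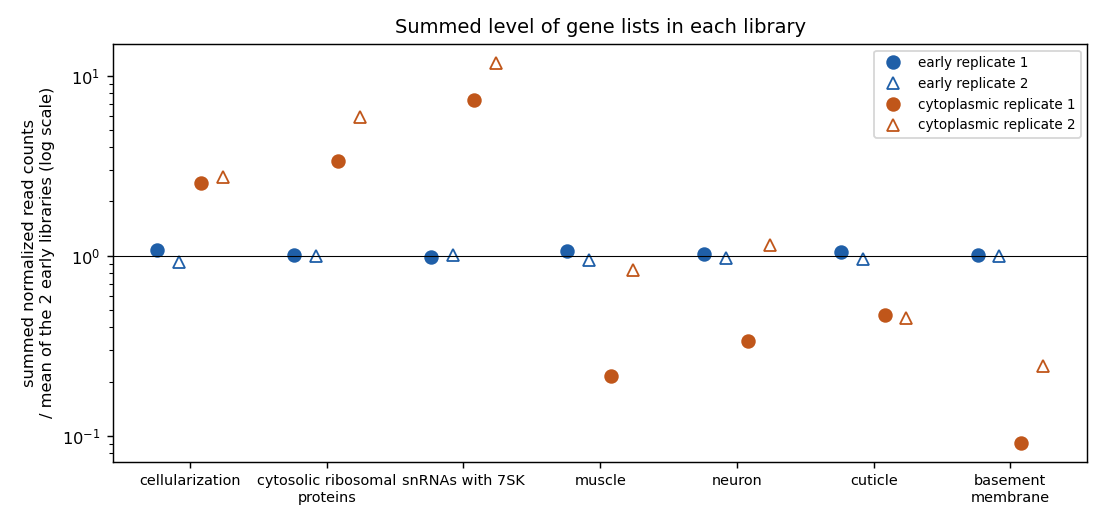
Summed normalized read counts of 7 gene lists in each library, divided by the mean of the 2 early libraries (log scale). Circles are replicate 1 and triangles replicate 2. The cuticle list includes Cpr, which encodes a cytochrome P450 reductase. The snRNA sums, mostly 7SK, lie far above the early ones in both cytoplasmic libraries. The basement membrane sums lie below, and the muscle and neuron sums differ between the cytoplasmic replicates.

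By limma 1255 genes (12.6% of those tested) were higher and 1311 (13.1%) were lower in cytoplasmic extracts at an adjusted p under 0.05. Of these calls, 437 and 588 were changes of at least 4-fold, a log2 fold change of 2 or more in size. The median log2 fold change of all tested genes was -0.0036. The counts depended on the libraries: 133 genes were higher and 39 lower without early replicate 1, 209 and 350 without early replicate 2, 2772 and 3025 without cytoplasmic replicate 1, and 4020 and 3369 without cytoplasmic replicate 2. Each such fit keeps 1 library in that group and takes its spread from the other group. Without an early library the spread thus came from the cytoplasmic replicates alone. All fold changes are of log2(normalized read count + 1), which understates the change of low genes.

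The 12 largest rises were mostly those of short, intronless genes, from 0 to 1366 normalized read counts in early embryos. CG34214 had 270 and 69.0 normalized read counts in early embryos and 10784 and 15907 in cytoplasmic extracts (log2 fold change 6.57, SE 0.66, adjusted p = 0.012). Z600, which holds back mitosis by binding cyclins, had 144 and 20.1 against 3211 and 4861 (log2 fold change 6.16, SE 0.92, adjusted p = 0.016). The rule for these genes fixed that the groups do not overlap. In both genes early replicate 1 stood above early replicate 2. The forkhead gene fd19B had 11.2 and 0 against 317 and 253, and the cytochrome P450 gene Cyp312a1 had 9.35 and 0.874 against 291 and 224. CG9863 was at 0 in both early libraries and at 50.7 and 73.8 in cytoplasmic extracts, at least 22.9-fold higher against a floor of 3 reads per library. CR43887, a noncoding RNA, had 1366 and 856 normalized read counts in early embryos and 36106 and 105597 in cytoplasmic extracts (log2 fold change 5.83, SE 0.57, adjusted p = 0.012). The remaining rises of the 12 named were CG14427 (log2 fold change 6.51), CG13653 (6.44), CG18132 (6.08), CG43725 (5.94), SNCF (5.90) and CG13713 (5.89).

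Of these 12 genes, 9 have a single exon, and their exonic lengths run from 450 to 3383 bases with a median of 646. In the annotation BDGP6.54, matched by FlyBase ID, Z600 lies on chromosome 3L from 15509061 to 15509513 inside the gene gdl on the same strand. CG34214 lies on chromosome 2R from 24665427 to 24666022 and overlaps ND-19 on the other strand. CG14427 lies on chromosome X from 7040603 to 7041769 and overlaps CG12541. SNCF overlaps CG14111, CG13713 overlaps RhoGEF64C, and CG9863 overlaps CG3502. Whether reads were counted by strand is not given in the sources used here, so that the levels of overlapping genes are uncertain. The rises of CG13653, fd19B, CG18132, CG43725, Cyp312a1 and CR43887 do not overlap another annotated gene.

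The study listed sites with the Zelda heptamer upstream of 9 of the 12 genes. Those of genes on chromosome 2R, among the 12 CG34214 and CG9863, were not considered, and none was listed for Cyp312a1. The sites below are 10 bases long, read 5′ to 3′ on the strand that holds the heptamer, and capitals mark CAGGTAG. They are shown since 9 of the 12 largest rises share this core. The cellularization genes halo and Sry-alpha are shown as well and are not among the 12.
CG14427, chromosome X: tCAGGTAGcc
fd19B, chromosome X: tCAGGTAGaa
CG13653, chromosome 3R: cCAGGTAGac
Z600, chromosome 3L: gCAGGTAGca
SNCF, chromosome 3L: gCAGGTAGat
CG13713, chromosome 3L: aCAGGTAGtt
CR43887, chromosome 3L: aCAGGTAGac
CG43725, chromosome 2L: gCAGGTAGcc
CG18132, chromosome 2L: gCAGGTAGct
halo, chromosome 2L: gCAGGTAGct
Sry-alpha, chromosome 3R: aCAGGTAGaa
CG18132 and halo are neighbours, and the same sites were listed for both. The study listed sites only for genes it had chosen as late from these libraries, so that the match is a description. The share of all promoters with the heptamer was not computed here, as no promoter sequences were read.

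**Figure D2:**
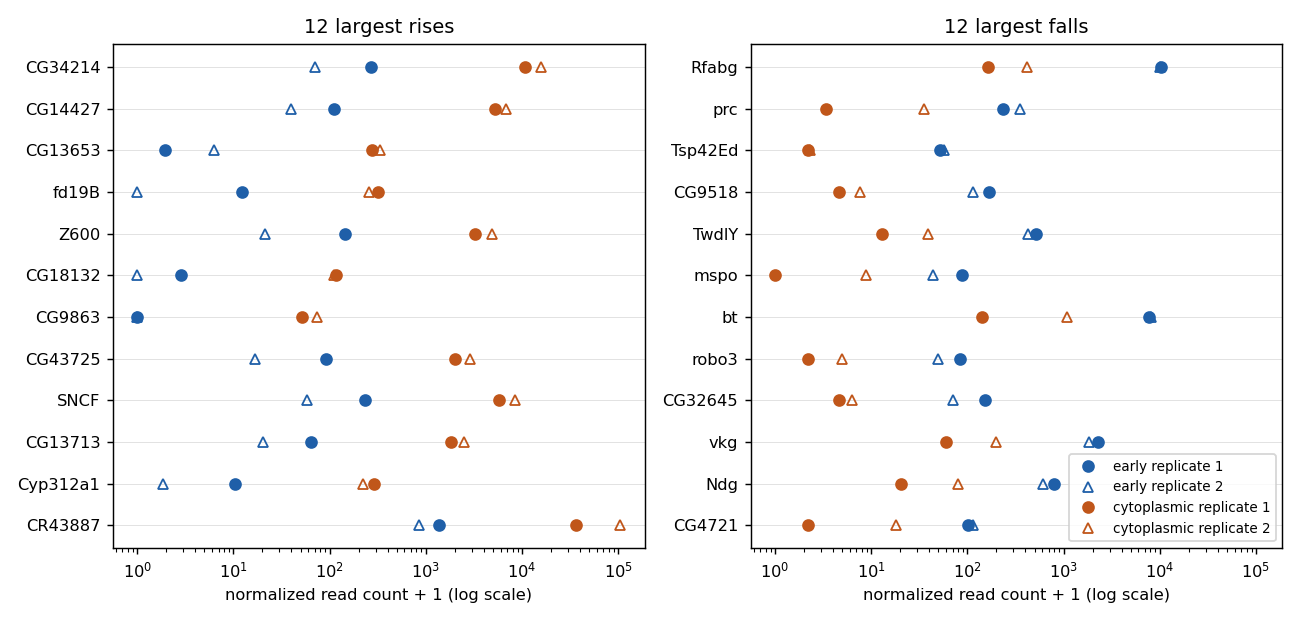
Normalized read count + 1 (log scale) of the 12 largest rises and 12 largest falls in each of the 4 libraries. The genes were chosen as called with groups that do not overlap, so that the separation of early (blue) and cytoplasmic (orange) libraries is no finding. In 10 of the 12 rises early replicate 1 lies above early replicate 2.

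Genes of cellularization and of the mitotic pause rose together. Of 13 genes, 10 were called higher and none lower by limma, with a median log2 fold change of 4.29 (11 higher at an unadjusted p under 0.05 and 11 by DESeq2). Fewer of them were called higher when either early library was left out. Sry-alpha, an actin-binding protein of the cellularization furrow, had 811 and 330 normalized read counts in early embryos and 12481 and 13334 in cytoplasmic extracts (log2 fold change 4.64, SE 0.45, adjusted p = 0.012). Its partners nullo and bnk, which organise the actin network around the nuclei, had log2 fold changes of 4.29 (SE 0.69) and 4.07 (SE 0.76). The gene halo, which directs the transport of lipid droplets, had 236 and 69.0 against 4847 and 7037. Genes already high in early embryos moved less. The gene slam, needed for the furrow membrane, had 4794 and 3504 against 10600 and 12308 (log2 fold change 1.48, SE 0.27, adjusted p = 0.023), and trbl, which promotes the decay of String, had 1655 and 1615 against 8012 and 6414. The String gene stg (9479 and 8559 against 13530 and 8280) overlapped between groups, kuk (18069 and 16956 against 21009 and 18381) did not, and neither passed the test.

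Genes of X counting rose as well. The list held the signals that count X chromosomes, msl-2 and Sxl, and 6 of its 7 genes, all but Sxl, were higher by limma. The X-linked activators sisA and sc had 57.0 and 61.2 against 1284 and 1500, and 61.7 and 33.2 against 1257 and 1335 (log2 fold changes 4.53, SE 0.28, and 4.81, SE 0.39, both adjusted p = 0.012). The gene os, for the ligand Upd1, had 66.4 and 31.5 against 1414 and 1005, and dpn, the autosomal counterweight, 156 and 127 against 2323 and 1698. Sxl, the target of these signals, has a maternal pool and stood at 6491 and 6605 against 6039 and 7701 (log2 fold change 0.06, SE 0.25). The counts of Sxl do not separate its early and late transcripts. Leaving out either early library kept 6 calls.

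In the segmentation cascade, rises were seen at the gap and pair-rule levels. Of 10 trunk and terminal gap genes 6 were higher, of 10 head gap genes 4, and of 9 pair-rule genes 8, with median log2 fold changes of 2.39, 1.13 and 3.31. The terminal gap genes tll (65.4 and 30.6 against 901 and 817) and hkb (25.2 and 16.6 against 335 and 389) had log2 fold changes of 4.23 (SE 0.45) and 4.07 (SE 0.40). Among trunk gap genes kni had 84.1 and 55.9 against 811 and 881, gt 52.3 and 19.2 against 367 and 533, and Kr 230 and 147 against 720 and 984. The gene hb (Hunchback), with a maternal as well as a zygotic transcript, stood at 2870 and 2639 against 2986 and 2016 and did not pass the test. The pair-rule gene ftz had 15.9 and 9.61 against 396 and 552 (log2 fold change 5.13, SE 0.44, adjusted p = 0.012), eve 5.61 and 0.874 against 61.5 and 59.3, and prd 29.9 and 1.75 against 281 and 321. The early libraries differed most in prd, whose SE was 1.15. The next tiers moved less. Of 10 segment polarity genes ptc, the Hedgehog receptor, was higher (log2 fold change 1.14, SE 0.27) and fz2, a Wingless receptor, lower (-1.18, SE 0.24). The call of ptc was lost by edgeR and with upper quartile scaling, and both calls were lost without either early library. None of 8 Hox genes passed by limma, edgeR or DESeq2, 1 was lower at an unadjusted p under 0.05, and their median log2 fold change was -1.15. Ubx had 121 and 193 against 44.6 and 85.6, and abd-A 118 and 176 against 83.3 and 195. Without early replicate 1 or 2, 5 and 5 trunk gap, 0 and 1 head gap and 6 and 6 pair-rule genes were called higher, and without cytoplasmic replicate 2, 5 Hox genes were called lower.

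Dorsoventral genes rose in part. In the dorsal ectoderm and amnioserosa 11 of 18 genes were higher, with a median log2 fold change of 2.18. The homeobox genes zen (106 and 37.6 against 1628 and 1717) and zen2 (49.5 and 21.8 against 925 and 946), which specify amnioserosa, had log2 fold changes of 4.71 (SE 0.53) and 4.78 (SE 0.47). The Dpp pathway was covered from ligand to cofactor. Its ligands dpp and scw had 102 and 70.8 against 432 and 342, and 220 and 67.3 against 1993 and 1627. The protease tld, which frees these ligands, had 258 and 128 against 3322 and 3555 (log2 fold change 4.24, SE 0.39), and the carrier tsg 89.7 and 35.8 against 1345 and 1415. The gene sog, for the inhibitor made in the neurogenic ectoderm, had 137 and 107 against 419 and 465 (log2 fold change 1.86, SE 0.31). The later dorsal genes pnr, ush, tup and peb did not pass the test. In the mesoderm 5 of 17 genes were higher. The mesoderm factors twi (106 and 38.5 against 758 and 1171) and sna (46.7 and 34.1 against 367 and 414) were among them, as was the transporter gene Mdr49 (317 and 166 against 3945 and 4349, log2 fold change 4.17, SE 0.36). The gene fog, for the ligand of apical constriction, stood at 3401 and 3327 against 3158 and 1710 and T48 at 1637 and 1567 against 3497 and 1662, and neither passed. When early replicate 1 or 2 was left out, 5 and 6 dorsal and 2 and 4 mesoderm genes were called higher.

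Genes of the neural fate rose in part. Of 19 Bearded, Enhancer of split and proneural genes 10 were higher and 1 lower, with a median log2 fold change of 2.07. The Bearded family encodes small proteins that block the ubiquitin ligase Neuralized, and BobA, Tom, Ocho, Brd and m4 of its 7 tested members were called higher. BobA had 303 and 274 against 3407 and 4200, Tom 922 and 1193 against 6717 and 7283, Ocho 107 and 200 against 1251 and 1850, and Brd 105 and 99.6 against 861 and 1858. The family members malpha (64.5 and 135 against 265 and 590) and m6 (19.6 and 30.6 against 6.03 and 38.2) did not pass. BobA, Tom, Brd and Ocho lie side by side on chromosome 3L between 14943730 and 14977631 (BDGP6.54). Dl (Delta), the Notch ligand, was lower, with 5140 and 4424 against 1155 and 1237 (log2 fold change -2.0, SE 0.22, adjusted p = 0.012), and neur (Neuralized) itself stood at 2675 and 2371 against 1420 and 1791 without passing the test. Of 12 neurogenic ectoderm genes 4 were higher, rho, the protease that releases the EGFR ligand, with 146 and 150 against 884 and 819, vnd, sog and sca. Of 12 neuroblast genes 4 were higher, and 2 without early replicate 1. The gene mira, for an adaptor that segregates fate determinants, had 579 and 551 against 6040 and 5678 (log2 fold change 3.37, SE 0.21, adjusted p = 0.012). In the Bearded and Enhancer of split list 5 genes were called higher without early replicate 1, and in the neurogenic list 0 and 1 without early replicate 1 or 2.

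In the JAK-STAT pathway, ligand and receptor RNAs moved in opposite directions. The ligands os and upd2 rose, upd2 from 2.80 and 4.37 to 57.9 and 47.4 (log2 fold change 3.56, SE 0.53). The receptor gene dome had 6071 and 5801 against 1362 and 907 (log2 fold change -2.42, SE 0.27, adjusted p = 0.012), and the transcription factor gene Stat92E 9509 and 8702 against 1632 and 2501 (-2.17, SE 0.29, adjusted p = 0.014). The kinase gene hop stood at 2051 and 1877 against 1011 and 1690 and did not pass. In all, 4 of 13 genes of the JAK-STAT and EGFR pathways were higher and 2 lower. Without early replicate 1, 1 was higher and 0 were lower.

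**Figure D3:**
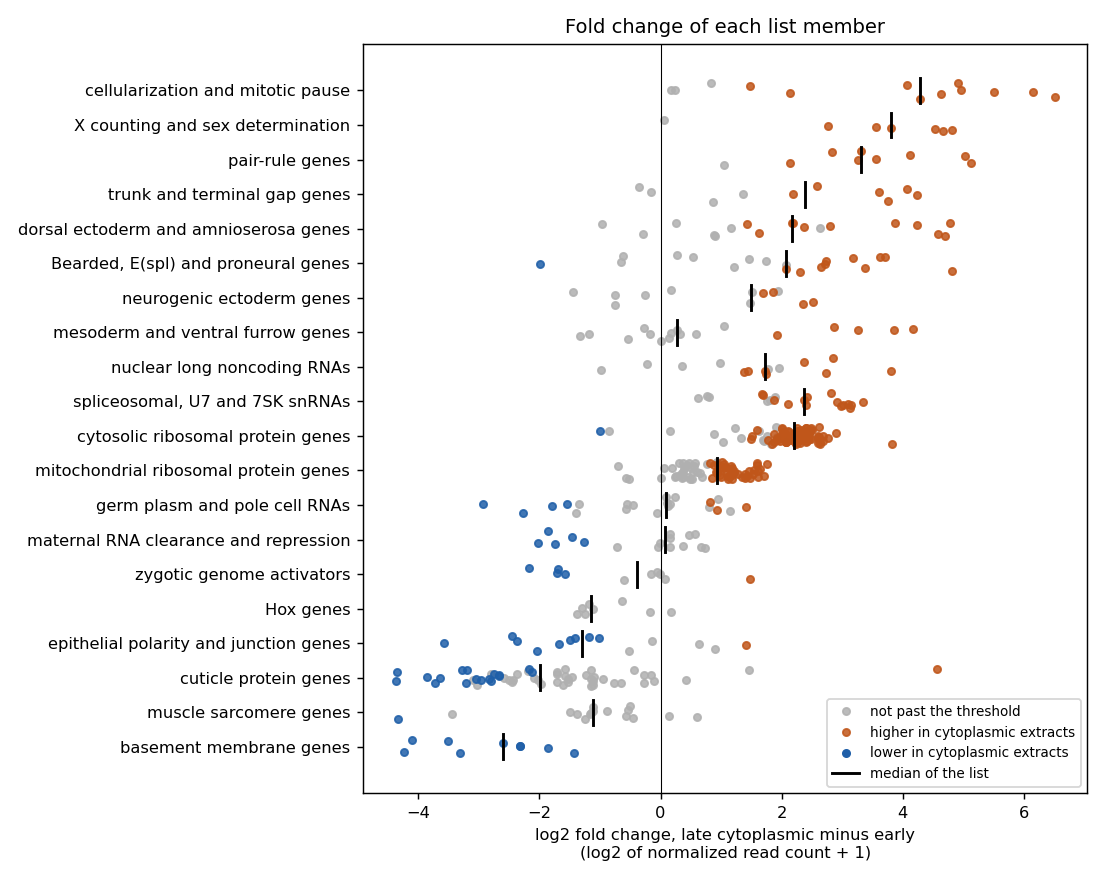
Log2 fold change, late cytoplasmic minus early, of each tested member of 20 gene lists. Orange members were called higher, blue members lower and grey members did not pass the test, and the black bar marks the median of the list. Cellularization genes have the highest median (4.29) and basement membrane genes the lowest (-2.61).

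Noncoding RNAs were higher more often than lower. Of 143 tested genes of the class ncRNA in the files, 43 were higher and 3 lower. The RNA roX1 of the male dosage compensation complex had 1853 and 2293 normalized read counts in early embryos and 12215 and 15461 in cytoplasmic extracts (log2 fold change 2.74, SE 0.26, adjusted p = 0.012). The second such RNA, roX2, had 261 and 302 against 559 and 1654 and did not pass. The noncoding RNAs of the bithorax complex, bxd (22.4 and 9.61 against 200 and 242) and iab-4 (20.6 and 35.8 against 147 and 142), rose while the Hox genes of the same complex did not pass the test. Of 14 long noncoding RNAs listed under the name nuclear 8 were higher, and 5 with upper quartile scaling. Fewer of them were called higher without either early library. The list also holds yar, msa, sphinx and Uhg transcripts, among them Uhg2, which overlaps snoRNA genes on the same strand. Where the listed RNAs lie in the cell was not tested, so that the 8 are not a count of nuclear RNAs. Hsromega, a long RNA of nuclear speckles, stood at 952 and 1230 against 1140 and 1682. Of 29 miRNA genes listed, mir-6-1 alone reached the minimum (0.935 and 0 against 13.3 and 6.59), on few reads. Its call was lost by edgeR and DESeq2 and without either early library.

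Small RNAs of the nucleus and nucleolus were higher or did not pass the test. Of 21 tested snRNAs 15 were higher by limma, 14 by edgeR, 14 by DESeq2 and 12 with upper quartile scaling. None was lower by any of these, and the median log2 fold change was 2.36. The RNA snRNA:7SK, which holds the elongation factor P-TEFb inactive, had 77907 and 84728 in early embryos and 642726 and 1065239 in cytoplasmic extracts (log2 fold change 3.35, SE 0.80, adjusted p = 0.039, and 0.051 with upper quartile scaling). Of 132 tested snoRNAs 84 were higher and none lower, 43 with upper quartile scaling, and 3 and 18 without early replicate 1 or 2. The largest rises were those of snoRNA:gcl-a (2.80 and 1.75 against 115 and 90.9), which lies inside gcl, and unsRNA:d-a (6.54 and 8.74 against 222 and 294), inside dachs. The host gene gcl stood at 12840 and 13001 against 36275 and 17028 and did not pass. The RNA of RNase P (RNaseP:RNA) had 7511 and 6841 against 34217 and 63295 (log2 fold change 2.70, SE 0.40). Copies of 1 snRNA are near identical, so that their separate counts are uncertain. Many snoRNAs lie inside host genes on the same strand, and the insert sizes of the libraries are not given in the sources used here. Without early replicate 1 or 2, 2 and 10 snRNAs were called higher.

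Ribosomal protein RNAs took a growing share of the reads. The 93 cytosolic ribosomal protein genes held 8.99% and 9.02% of all normalized read counts in early embryos, 19.3% in cytoplasmic replicate 1 and 34.9% in replicate 2. Of 90 tested, 75 were higher by limma, with a median log2 fold change of 2.20, and RpLP0-like was lower. RpL19 had 31694 and 30812 against 169405 and 267753 (log2 fold change 2.77, SE 0.51, adjusted p = 0.023). Nearly all of these calls were lost without either early library, where the spread came from the cytoplasmic replicates alone. Those replicates lay far apart for this list. The calls were not lost without either cytoplasmic library, where the spread came from the early replicates alone. With small RNA genes removed before upper quartile scaling, 48 were called. Of 71 mitochondrial ribosomal protein genes 40 were higher, with a smaller median of 0.94. The gene mRpL16, which overlaps arm, had 731 and 728 against 2674 and 2256 (log2 fold change 1.75, SE 0.22, adjusted p = 0.013). None of these was called without either early library. Among 32 translation factor genes 12 were higher and 2 lower, against 0 and 0 without early replicate 1 and 0 and 1 without early replicate 2. Ef1beta had 16196 and 16018 against 62122 and 87527 (log2 fold change 2.19, SE 0.38). The 2 that fell, eIF4G (24008 and 24014 against 4432 and 5911) and eIF5 (15732 and 14450 against 2290 and 3623), are initiation factors, with log2 fold changes of -2.23 (SE 0.28) and -2.39 (SE 0.31). Transcripts of the mitochondrial genome, 37 listed, were at 0 in all 4 libraries, and none was tested. Whether reads of that genome were counted is not given in the sources used here, so that these zeros are not read as RNA levels.

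The 12 largest falls were those of genes of differing function, with exonic lengths from 1034 to 28019 bases and a median of 4384. Rfabg, the precursor of the lipid carrier apolipophorin, had 10355 and 9980 normalized read counts in early embryos and 163 and 411 in cytoplasmic extracts (log2 fold change -5.29, SE 0.46, adjusted p = 0.012). It lies on chromosome 4 from 1060969 to 1077273 (BDGP6.54). Prc, the heart matrix protein pericardin, had 232 and 352 against 2.41 and 34.2. Bt, the giant muscle protein projectin, had 7754 and 8104 against 141 and 1077 (log2 fold change -4.34, SE 0.93, adjusted p = 0.031). The tetraspanin gene Tsp42Ed had 50.5 and 55.9 against 1.21 and 1.32, the Slit receptor gene robo3 83.2 and 48.9 against 1.21 and 3.95, and the cuticle gene TwdlY 521 and 420 against 12.1 and 38.2. The remaining falls of the 12 named were CG9518 (log2 fold change -4.56), mspo (-4.37), CG32645 (-4.27), vkg (-4.23), Ndg (-4.11) and CG4721 (-4.10). In all 12 cytoplasmic replicate 2 stood above replicate 1. Of the 24 rises and falls named here, 21 stayed called with upper quartile scaling and 20 with small RNA genes removed before it. With no filter 21 stayed called, and 22 by edgeR. With a minimum of 5 in every library, which leaves genes low in any library untested, 12 stayed called. Fewer than the 24 stayed called without early replicate 1, and all or nearly all without any other library.

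All 9 basement membrane genes were lower, with a median log2 fold change of -2.61. The collagen IV chains vkg and Cg25C had 2265 and 1854 against 59.1 and 196, and 1864 and 1590 against 82.0 and 358. The laminin chains LanA, LanB1, LanB2 and wb had log2 fold changes of -2.61 (SE 0.54), -2.31 (SE 0.41), -1.85 (SE 0.39) and -1.43 (SE 0.35). Nidogen (Ndg) had 802 and 602 against 19.3 and 79.0, the perlecan gene trol 1275 and 1030 against 50.7 and 194, and BM-40-SPARC 389 and 284 against 47.1 and 92.2. The count of 9 fell to 5 with upper quartile scaling, and to 1 and 6 without early replicate 1 or 2. Of 56 tested genes with cuticle protein names 17 were lower and 1 was higher, with a median of -2.0. The names listed include Cpr, which encodes a cytochrome P450 reductase and no cuticle protein. The 17 became 11 with upper quartile scaling and 0 and 12 without early replicate 1 or 2. TwdlM had 809 and 683 against 22.9 and 132. Cpr49Ag was at 19.6 and 19.2 in early embryos and at 0 in both cytoplasmic libraries, at least 5.13-fold lower against a floor of 3 reads per library. Cpr60D went the other way, with 9.35 and 5.24 against 186 and 191 (log2 fold change 4.56, SE 0.47). Among 16 sarcomere genes bt alone was called (14 lower without cytoplasmic replicate 2, 4 higher and 3 lower without cytoplasmic replicate 1, 2 lower without early replicate 2, and 0 with small RNA genes removed before upper quartile scaling), and Mhc, the muscle myosin, had 9651 and 8167 against 1263 and 7814. Syt1, a synaptic vesicle protein, was the only one called of 12 neuron genes (159 and 107 against 10.9 and 38.2). Its list had 0 calls by edgeR, with upper quartile scaling and without either early library, 1 higher and 1 lower without cytoplasmic replicate 1, and 11 lower without cytoplasmic replicate 2. With the replicate number as a block, 9 sarcomere, 5 neuron and 32 cuticle genes were called lower. These matrix, cuticle, muscle and nerve products belong to later embryos and adults, and their part in the other falls was not tested.

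RNAs of adhesion and polarity proteins, which have a large maternal store, were lower. Of 14 genes 9 were lower and 1 was higher, with a median log2 fold change of -1.30. The adherens junction genes alpha-Cat (13068 and 12956 against 761 and 1548), shg, the E-cadherin (6168 and 6170 against 1266 and 1119), ed (4267 and 3821 against 631 and 857) and cno (9713 and 9000 against 2097 and 2443) had log2 fold changes of -3.58 (SE 0.38), -2.37 (SE 0.21), -2.45 (SE 0.25) and -2.05 (SE 0.23). The beta-catenin gene arm stood at 17655 and 16380 against 10064 and 14112 and did not pass. The basolateral genes scrib, dlg1 and l(2)gl had log2 fold changes of -1.68, -1.42 and -1.49, and the apical genes baz and crb -1.18 and -1.01. The adhesion gene Nrt rose, with 2490 and 1985 against 5703 and 6152. The count of 9 became 1 and 4 when early replicate 1 or 2 was left out. Tl (Toll), the receptor of the dorsal group, had 25343 and 24585 against 2588 and 2097 (log2 fold change -3.42, SE 0.25, adjusted p = 0.012). Of the 9 leucine-rich receptors of axis extension Tl, caps and haf were lower, and Tl alone was lower with upper quartile scaling and without either early library.

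Maternal regulators were tested in several lists. Of 16 genes of maternal RNA clearance and repression 5 were lower and none higher by limma, edgeR or DESeq2 (1 higher at an unadjusted p under 0.05). The gene smg, whose product recruits the deadenylase to maternal RNAs, had 42500 and 37625 against 10415 and 9306 (log2 fold change -2.02, SE 0.30, adjusted p = 0.016), pum 8903 and 8316 against 2481 and 2651, and the deadenylase scaffold gene Not1 14325 and 14013 against 4402 and 5958. The gene me31B, for an RNA helicase of repressed messages, stood at 88736 and 84084 against 116056 and 79465 and overlapped between groups. None of the 5 was called without either early library. The list of zygotic genome activators held 10 genes, among them ttk, which encodes a repressor, and bab1. Of these 10 genes 4 were lower by limma: Stat92E, psq, CG1832 (Clamp) and vfl. The gene of Zelda, vfl, had 6376 and 5997 against 1566 and 2286 (log2 fold change -1.71, SE 0.27, adjusted p = 0.017). The activator grh was higher (143 and 191 against 380.1 and 557.1), a call lost with upper quartile scaling and without either early library. The activator cad stood at 4377 and 4035 against 6582 and 2953. Fewer genes of this list were called lower without either early library. Of 12 tested maternal anterior and terminal genes 2 were higher and 3 lower, against 12.6% and 13.1% of all tested genes. Of these too, fewer were called without either early library. The bcd RNA, the anterior determinant, had 3933 and 3532 against 1118 and 790 (log2 fold change -1.99, SE 0.26), while swa, needed for its localization, had 13508 and 13769 against 54403 and 29631 (1.56, SE 0.41).

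Of 21 germ plasm RNAs 3 were higher (1 by edgeR, 5 by DESeq2) and 4 lower, shares near the 12.6% and 13.1% of all tested genes. The 4 that fell were AGO3 (11228 and 10630 against 1407 and 1461, log2 fold change -2.93, SE 0.21), tud (11821 and 12069 against 2408 and 2522), del and tej. The gene pgc, whose product silences transcription in pole cells, had 10257 and 9785 against 33878 and 20759 (1.40, SE 0.35, adjusted p = 0.043). In some, the cytoplasmic replicates lay far apart. The posterior determinant osk had 40669 and 41749 in early embryos and 83145 and 23723 in cytoplasmic extracts, and nos 37300 and 39946 against 94572 and 47942. In fits without early replicate 1 or 2, 0 and 0 germ plasm RNAs were called higher and 1 and 2 lower.

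Cell cycle and checkpoint RNAs mostly did not pass, which held for all tested genes as well (12.6% higher and 13.1% lower). CycB had 91100 and 80920 against 69806 and 56000, and grp, the Chk1 kinase, 22088 and 21076 against 48851 and 32959 (log2 fold change 0.90, SE 0.37, adjusted p = 0.13). Of 18 DNA checkpoint genes 3 were higher and 2 lower. CG32251 (Claspin), an adaptor for Chk1, had 4620 and 4700 against 389 and 537 (log2 fold change -3.35, SE 0.25, adjusted p = 0.012), and wee, the Cdk1 inhibitory kinase, 3124 and 3098 against 1397 and 1422. Of 25 genes of the PNG kinase, meiosis and the mitotic cyclins 2 were higher and 3 lower. The gene gnu, for a subunit of the PNG kinase, had 5082 and 4949 against 22712 and 15639 (1.91, SE 0.29), and the phosphatase gene twe 5337 and 5012 against 2343 and 2656. Slbp, which binds the histone message, had 3294 and 3098 against 11950 and 7965 (1.61, SE 0.28, adjusted p = 0.021), and CG3509 (BigH1), the embryonic linker histone, 10347 and 10054 against 31001 and 20173. Of these 6 called genes, CG32251 alone was called without early replicate 1. Replication-dependent histone genes have near-identical copies, so that their separate counts are uncertain. Of 111 listed 4 were tested, and 1 was higher.

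Fold changes moved with the length of the gene. Across the 9274 protein-coding genes with an annotated exonic length, Spearman's rho between log2 fold change and length was -0.34, a description over genes that share 4 libraries. It was -0.26 for cytoplasmic replicate 1 and -0.41 for replicate 2, each against the early mean. From 500 to 1000 bases the median log2 fold change was 0.48, with 23.4% of genes higher and 4.10% lower. Above 8000 bases it was -1.31, with 0.476% higher and 40.5% lower. Single-exon genes were higher in 19.1% and lower in 6.60% of cases, against 10.7% and 14.2% of genes with more exons. Protein-coding genes called higher by at least 4-fold had a median length of 1242 bases and genes called lower by as much 3486, against 2115 for all. The lists did not all follow this order. Median exonic lengths were 916 for cytosolic ribosomal proteins, 1352 for cellularization and 6282 for basement membrane genes, but 2346 for pair-rule, 3125 for X counting and 3385 for trunk gap genes, all lists with positive medians. They were 6429 for epithelial polarity genes and 5797 for leucine-rich receptors and for zygotic genome activators, all lists with negative medians. Maternal RNA clearance genes, with a median length of 5641.5, had a median log2 fold change of 0.075. From 5000 to 8000 bases 28.8% of protein-coding genes were lower. The part of length in the changes of the lists was not tested.

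Genes of chromosome 4, the small dot chromosome, were lower as a group. Of its 83 tested genes 39 were lower (47.0%) and none was higher by limma or edgeR (4 higher at an unadjusted p under 0.05 and 1 called by DESeq2), with a median log2 fold change of -1.38. On the other arms 11.3% to 15.1% of genes were lower and 12.0% to 13.9% higher. Genes on chromosome 4 are longer, with a median of 4265 bases against 2054 elsewhere. Among protein-coding genes of over 3000 and up to 8000 bases, 52.3% of the 44 on chromosome 4 and 22.4% of the 2536 elsewhere were lower. Besides Rfabg, bt and eIF4G these included the TGF-beta ligands mav (2741 and 2431 against 136 and 246) and myo (3375 and 3438 against 229 and 342), the receptor gene Eph (10099 and 10090 against 966 and 1031) and its ligand Ephrin (6336 and 6527 against 924 and 868), chosen after their values were seen. The count of 39 was 12 and 22 without early replicate 1 or 2, and 35 to 58 under every other setting. The count of higher genes was 2 with a pseudocount of 5 or a minimum of 5 in every library, 6 without cytoplasmic replicate 1 and 11 without cytoplasmic replicate 2. It was not tested whether the fall differs from that of other genes of equal length and level.

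**Figure D4:**
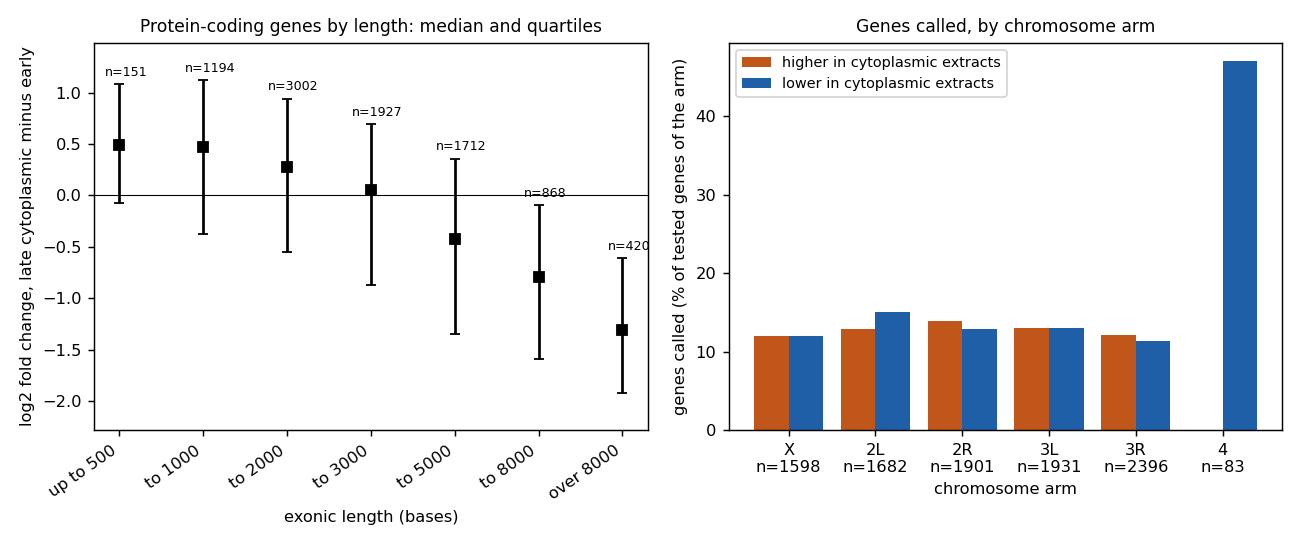
Left, median log2 fold change (late cytoplasmic minus early) of protein-coding genes by exonic length in bases, with bars from the lower to the upper quartile. Right, percentage of tested genes called higher or lower on each chromosome arm. The median goes from 0.48 at 500 to 1000 bases to -1.31 above 8000, and chromosome 4 has 47.0% of its genes lower and none higher.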

How the data were processed

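RNA-seq was done by the authors on libraries depleted of ribosomal RNA. The study's methods and the processing notes name TopHat for alignment (build BDGP5.78/dm3), featureCounts for counting by gene, and DESeq or DESeq2 for scaling. The signal used is the normalized read count per gene, deposited by the authors after dividing by 1 size factor per library. The 2 nuclear columns of the table were not used. Dividing each column by its smallest step gave whole reads (within 0.01) for 100% of values, used for depth, edgeR and DESeq2. At these depths genes near 5 normalized read counts rest on few reads.

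The main test was limma 3.58.1 (R 4.3.3) on log2(normalized read count + 1) with a trended variance, 1 term for group, two-sided, Benjamini-Hochberg over 9997 genes. Lengths, positions and overlaps came from Ensembl BDGP6.54, matched by FlyBase ID for 9591 genes, and positions hold for that build only. The code was tested on simulated data. Other settings tried were upper quartile scaling with and without small RNA genes, a pseudocount of 5, testing every gene above 0, a minimum of 5 in all libraries, a replicate block, edgeR 4.0.16, DESeq2 1.42.0, and leaving out each library.

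Named were the 12 largest rises and 12 largest falls among called genes whose groups did not overlap, at a mean of 50 or more in the higher one, 4 small RNA rises, the 6 genes with the highest mean per group, and up to 4 called and 2 abundant members per list. Members and lists were chosen with earlier results of these data known. Promoter sequences were not used here.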

Additional observations from a re-analysis of the deposited data

How the results depend on the processing

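The count of genes higher was 1255, and 1033 to 1683 under the 8 alternatives that kept all 4 libraries, which stays within 1.5 times. The count of genes lower was 1311, and 1090 to 1715. The highest value for lower genes came from the replicate block, with 1323 higher and 1715 lower. The replicate numbers did not pair the samples (correlation of same-numbered deviations -0.00071), and the block moved no count of all genes by over 1.5 times. Of the 1255 and 1311 genes, 930 and 1007 remained when small RNA genes were removed before upper quartile scaling, which moved the median log2 fold change of all genes to -0.11, and 1140 and 1247 remained in edgeR. Leaving out 1 library gave 133 to 4020 higher and 39 to 3369 lower genes. No named gene that was called changed direction under any setting. Of 171 such genes 63 stayed called without early replicate 1, 102 without early replicate 2, 168 without cytoplasmic replicate 1, 169 of 170 without cytoplasmic replicate 2, and 152 to 168 with a pseudocount of 5, no filter, upper quartile scaling, the replicate block, edgeR or DESeq2. With 2 libraries a group, differences of less than about the cytoplasmic replicate spread were not resolved, and stage and fractionation cannot be told apart.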

Other observations

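Rising genes were often neighbours. Of 426 annotated genes called higher by at least 4-fold, 35.4% had another such gene next to them among the tested genes, against 7.04% of the 9165 other genes, and 31.2% against 5.90% when overlapping neighbours were left out. Some of these neighbours were small RNA genes. Of 61 runs of such neighbours 44 held no snoRNA or snRNA, and a run of 5 on chromosome 2R held snoRNAs only. The longest run held 6 genes, CG13465, BobA, Tom, Brd, Ocho and CR43432, on chromosome 3L from 14943730 to 14977631 (BDGP6.54). A run on chromosome 2L held CG15480, CG16813, CG16815 and CG15479, of which CG16815 had 43.9 and 17.5 normalized read counts in early embryos and 1112 and 902 in cytoplasmic extracts. Another on chromosome 3L held CG32052, CG14168 and the insulin-like peptide genes Ilp3 (0 and 0 against 22.9 and 29.0) and Ilp4 (126 and 79.5 against 702 and 1052). CG15876, CG13713 and CG13712 formed a run of 3, as did CG18132, halo and the odorant receptor gene Or22a, at 1.87 and 0.874 against 18.1 and 22.4. The genes ac, sc and l(1)sc of the achaete-scute complex also ran together. These runs were chosen after their values were seen.

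The early replicates differed in some of the rising RNAs. Over the genes called higher by at least 4-fold with an early mean of at least 5, the median ratio of early replicate 1 to early replicate 2 was 1.08. Of these 318 genes, 69 (21.7%) were over 2 times as high in early replicate 1, and 5 were over 2 times as high in early replicate 2. Among all 9554 tested genes with that early mean, 3.38% were over 2 times as high in early replicate 1. In 10 of the 12 largest rises early replicate 1 stood above replicate 2. The cause was not tested.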
